A study of Mus musculus with 62 samples.

Results

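Transcripts of 10 genes of insulin and insulin-like growth factor (IGF) signalling were followed in the soleus of mice, a calf muscle made largely of slow fibres. They are the ligand Igf1, the binding proteins Igfbp3, Igfbp4 and Igfbp5, the receptors Igf1r and Insr, the adaptors Irs1 and Irs2, the phosphoinositide 3-kinase (PI3K) regulatory subunit Pik3r1 and the transcription factor Foxo1. They were chosen by gene symbol from the 47643 genes of the expression table, all 10 symbols were found, and all 10 were among the 13529 genes tested. Whole soleus was taken from female mice, 2 months old per the labels, at 2, 4, 6 and 8 weeks after an injection of melanoma cells that bring on cachexia (CAC), of melanoma cells that do not (NCAC), or after a mock injection (Con). Cachexia is the wasting of muscle and fat that accompanies some tumours. There were 7 libraries of CAC at week 8 and 5 of each other group, 62 in 12 groups. The labels call the libraries biological replicates without naming animals, so the p-values measure the spread between these samples. The labels do not agree on the strain: the sample entries give C57BL6/J and the design text NCI Ath/nude mice, a strain without a thymus. The protocol text also mentions LLC cells, a lung carcinoma line, and the labels name no melanoma line. Levels are in TPM, a share of all transcripts corrected for their length, from which the number of reads behind a value cannot be known. A log2 difference is on the log2(TPM + 1) scale, which understates the change of genes with low levels, and its adjusted p comes from limma with Benjamini-Hochberg adjustment over all tested genes. A gene was called at an adjusted p under 0.05.

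Insulin and IGF-1 bind related receptor tyrosine kinases, Insr and Igf1r, which phosphorylate the adaptors Irs1 and Irs2. These recruit PI3K, and the kinase AKT then promotes glucose uptake and protein synthesis through mTORC1 and keeps FoxO factors out of the nucleus. When the signal is low, FoxO factors enter the nucleus and switch on genes of protein breakdown, and in liver and muscle also Irs2 and Insr themselves. IGF binding proteins carry IGFs outside the cell and can either hold them back from the receptor or prolong their action. In skeletal muscle the pathway is known for its part in fibre growth and in atrophy.

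At week 8 the libraries of every treatment differed from the earlier ones: the summed level of 12 macrophage markers was 384 to 3004 TPM in the 17 libraries of week 8, against 58.9 to 354 TPM in the 45 earlier libraries. The summed level of 12 markers of fibro-adipogenic progenitors, the connective tissue cells of muscle, was 3573 to 13740 TPM at week 8, against 697 to 2575 TPM before. Slow fibre markers, which define soleus, were abundant in every group. Over weeks 6 and 8 their summed medians lay between 21040 TPM in CAC at week 8 and 42020 TPM in NCAC at week 6. Fast fibre markers had summed medians of 18430 TPM in CAC, 10750 TPM in NCAC and 11450 TPM in Con at week 8. In CAC replicates 6 and 7 of week 8 they exceeded the slow fibre sum (28240 against 15280 TPM and 18700 against 17640 TPM). Of the libraries, 3 held at least 500 TPM of Myh4, the fast myosin of neighbouring muscles: CAC replicate 4 of week 2, NCAC replicate 3 of week 6 and CAC replicate 6 of week 8. Leaving them out ended no member's call. The 6 melanoma markers summed to at most 4.75 TPM at weeks 2, 4 and 6, and to 17.1 and 9.325 TPM in CAC replicates 4 and 5 of week 8. In bulk tissue, fewer cells of a type and less RNA per cell cannot be told apart.

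At week 6, 7 of the 10 members rose in CAC against Con (Igf1, Igfbp3, Igfbp4, Igf1r, Irs2, Pik3r1 and Foxo1), 1 fell (Igfbp5), and Insr and Irs1 were not called. Of all genes tested, 25.7% were called, 21.8% higher and 3.87% lower. The members' median log2 difference was 0.58, and that of all tested genes was 0.16. In 5 members (Igf1, Igfbp3, Igfbp4, Irs2 and Pik3r1) every CAC library lay above every Con library, which held for 13.3% of tested genes. Median-of-ratios rescaling, which centres each library on the bulk of its genes, brought the median of all tested genes to 0.01, changed the split of all calls to 1417 higher and 1355 lower, and left 5 members higher and 1 lower, without Igf1 (adjusted p = 0.0541) and Foxo1 (adjusted p = 0.0946). Leaving out single libraries gave 6 to 9 members called.

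CAC against NCAC at week 6 shares its CAC libraries with the comparison above. It had 7 members higher, with log2 differences between 0.63 for Igf1r and 1.95 for Irs2, and 1 lower, Igfbp5 at -0.68. Of all genes tested, 22.2% were called, 18.8% higher and 3.42% lower, and after rescaling, which changed the split of all calls from 2540 higher and 463 lower to 1584 higher and 1470 lower, 7 members were higher and 1 lower. In 7 members every CAC library lay above every NCAC library (Igf1, Igfbp3, Igfbp4, Igf1r, Irs2, Pik3r1 and Foxo1), which held for 11.7% of tested genes.

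At week 8, 3 members rose in CAC against Con (Igfbp3, Insr and Foxo1) and Igfbp5 fell, where 12.4% of all tested genes were called, 6.37% higher and 6.05% lower. The members' median log2 difference was 0.69, and that of all tested genes was 0.00. Every CAC library lay above every Con library in Igfbp3 and Igf1r, as in 3.98% of tested genes. The count of 4 members was 8 without CAC replicate 3 and 2 without Con replicate 1, so 1 library moved it in either direction. Against NCAC at week 8, 4 members rose (Igf1r, Insr, Irs2 and Foxo1) where 11.8% of tested genes were called, with 10.3% higher. Every CAC library lay above every NCAC library in Igf1r and Irs2, as in 6.06% of tested genes. The count of 4 was 1 without CAC replicate 2, NCAC replicate 4 or NCAC replicate 5, and 2 without NCAC replicate 2. It was also 1, Irs2 alone, after rescaling, which changed the split of all calls from 1395 higher and 199 lower to 289 higher and 316 lower.

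No member was called at week 2 or week 4 in any pair of groups. CAC against Con had 0 genes called at week 2, where limma gave 1260 genes at an unadjusted p under 0.05, and 21 at week 4, which was 0.155% of tested genes. CAC against NCAC had 4 genes called at week 2 (0.0296%) and 27 at week 4 (0.2%). At week 4 every CAC library lay above every NCAC library in Igfbp3, as in 5.16% of tested genes. Between NCAC and Con no member was called at any week, and over all genes limma called 1 at week 2 (0.00739%), 0 at week 4, 1 at week 6 (0.00739%) and 0 at week 8, with 1616, 468, 380 and 2101 at an unadjusted p under 0.05. Whether the difference of CAC from Con itself differed between weeks was tested too. Between weeks 6 and 2 it reached no adjusted p under 0.05 for a member, with the smallest at Igfbp4 (log2 difference 1.01, SE 0.27, adjusted p = 0.0532), Igfbp5 (-0.97, SE 0.28, adjusted p = 0.0778) and Igfbp3 (1.23, SE 0.36, adjusted p = 0.0795), where 2.5% of all genes were called. Between weeks 8 and 6 no member was called either, and 0.192% of all genes were. The test between weeks 6 and 2 depended on single libraries. Leaving out 1 library gave 0 to 4 members, with 4 (Igfbp3, Igfbp4, Igfbp5 and Pik3r1) without week 6 CAC replicate 5. Igfbp4 was also called without week 2 CAC replicate 3 or 5, Igfbp5 without week 2 Con replicate 5 or week 6 Con replicate 1, and Igfbp3 without week 6 CAC replicate 2. Over these 20 fits the adjusted p was 0.0197 to 0.111 for Igfbp4, 0.0377 to 0.156 for Igfbp5 and 0.0369 to 0.134 for Igfbp3. With the replicate number as a block, Igfbp4 (adjusted p = 0.0481) and Igfbp5 (0.0172) were called.

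**Figure D1:**
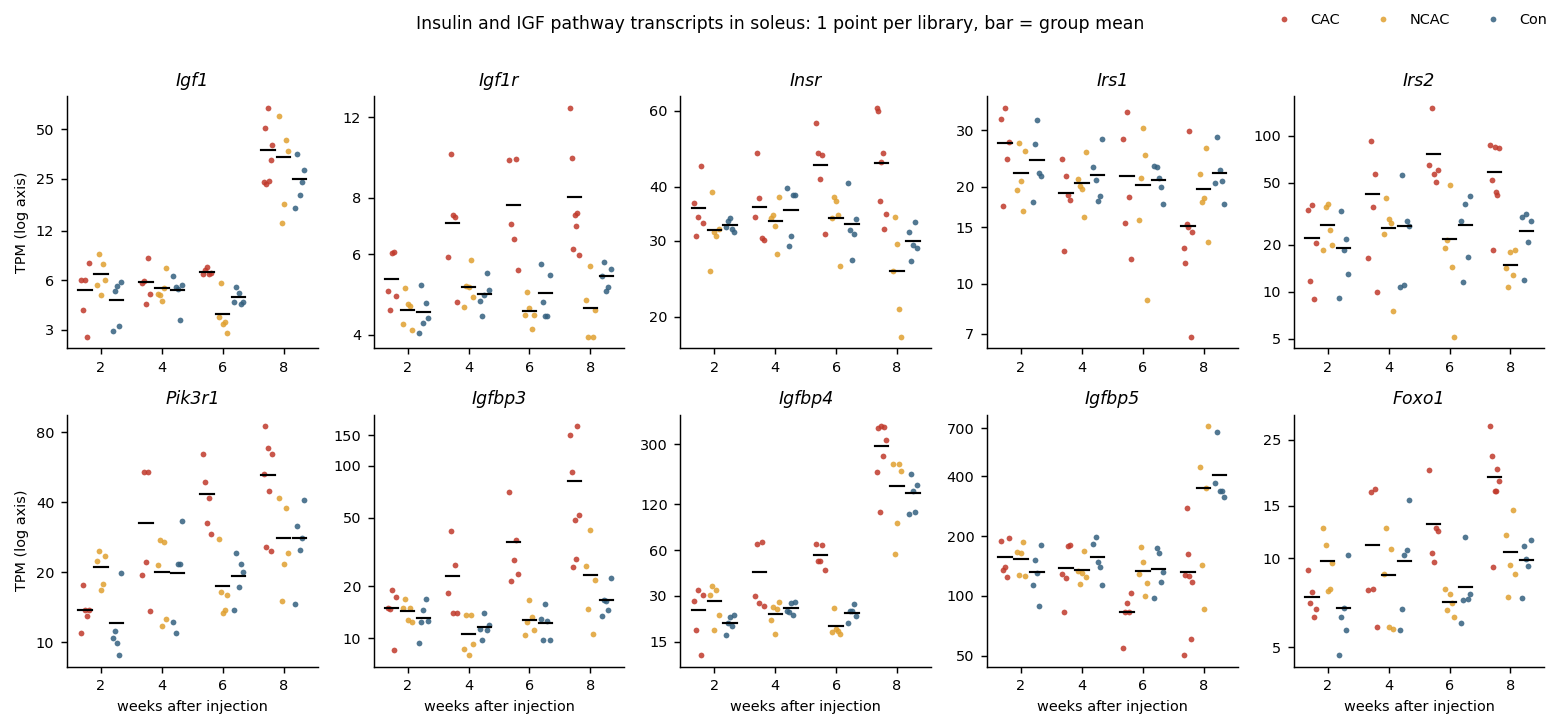
Level of each of the 10 genes (TPM, log axis) by weeks after injection, with 1 point per library, CAC in red, NCAC in amber and Con in blue, and a black bar at the group mean. Igf1, Igfbp4 and Igfbp5 stand far higher at week 8 than before in Con, while Irs1 shows no group apart at any week.

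**Figure D2:**
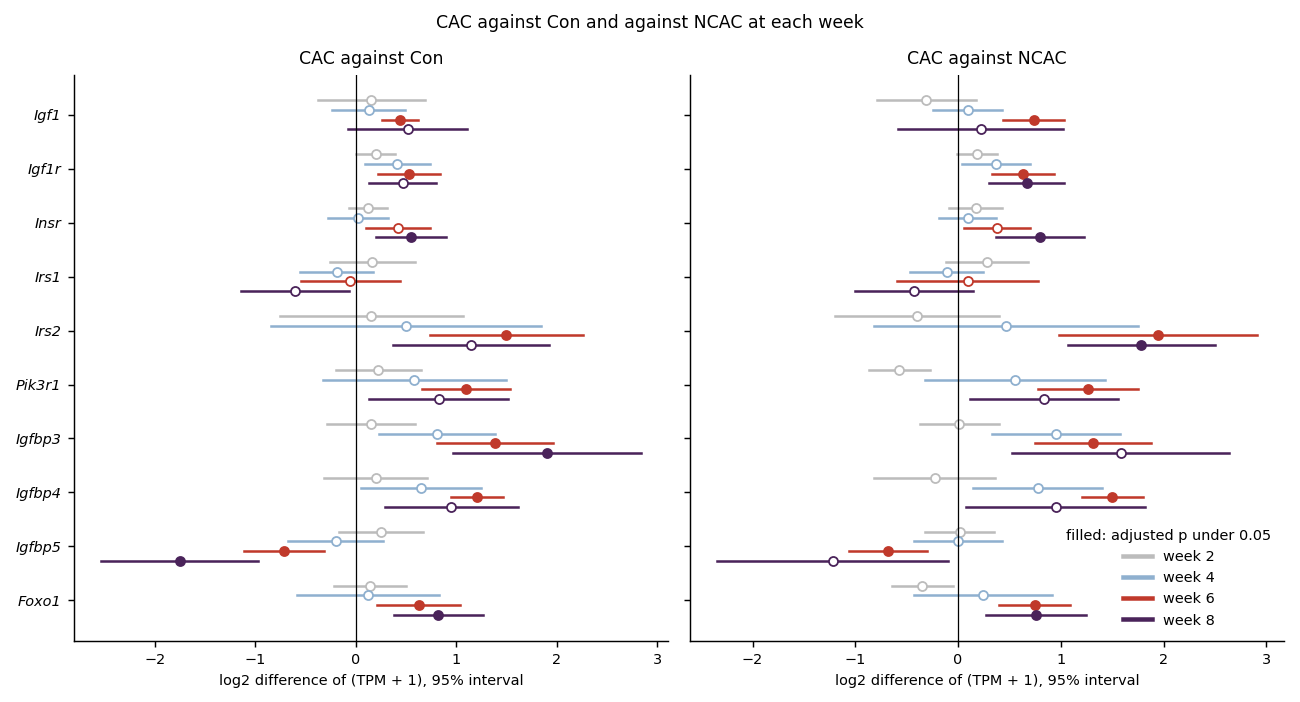
Log2 difference of (TPM + 1) with its 95% interval for each gene, CAC against Con on the left and CAC against NCAC on the right, from week 2 (grey) to week 8 (purple), with filled points where the adjusted p was under 0.05. At week 6 (red), 8 points are filled in each panel, and Igfbp5 is the only gene whose filled points lie left of zero.

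Igf1 (chr10:87858265-87937047, GRCm38.p6) encodes IGF-1, which muscle makes for local use besides the supply from liver. At week 6 its level was 6.53, 6.94, 7.18, 6.55 and 6.62 TPM in the CAC libraries, 3.56, 5.79, 3.26, 3.34 and 2.85 TPM in NCAC and 4.44, 5.48, 5.01, 4.33 and 4.42 TPM in Con. The CAC libraries lay close together and above every library of the other groups. The log2 difference was 0.44 against Con (SE 0.08, adjusted p = 0.00408) and 0.74 against NCAC (SE 0.14, adjusted p = 0.00347). The call against Con was lost in a fit of all 62 libraries (adjusted p = 0.212). By group mean the order ran from CAC, NCAC and Con at week 8 (37.4 ± 16.7, 34.1 ± 19.1 and 24.8 ± 7.42 TPM, SD, n = 7, 5 and 5) down to NCAC at week 6 (3.76 ± 1.16 TPM, SD, n = 5). In that order only the step from Con at week 8 to CAC at week 6 exceeded the larger SD of its neighbours on the log2 scale. At week 8 CAC was not called against Con (log2 difference 0.52, 95% interval -0.08 to 1.11, adjusted p = 0.236). Igf2, the other IGF ligand, stood at 8.05 ± 0.716 TPM in CAC and 8.49 ± 0.816 TPM in Con at week 6 (SD, n = 5 each, adjusted p = 0.582).

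The 3 binding proteins did not move in the same direction. Igfbp3 (chr11:7206086-7215498, GRCm38.p6), the main carrier of IGFs in blood, had 70.0, 21.5, 28.4, 36.9 and 23.6 TPM in CAC at week 6, 10.4, 12.4, 16.6, 13.2 and 11.1 TPM in NCAC and 12.9, 9.68, 15.9, 12.5 and 9.76 TPM in Con. CAC replicate 1 was the highest, and the lowest CAC library still exceeded every other library of the week. On the log2 scale the difference was 1.38 against Con (SE 0.27, adjusted p = 0.00424) and 1.31 against NCAC (SE 0.26, adjusted p = 0.00462). At week 8 Igfbp3 ranged from 25.9 through a median of 51.8 to 169.9 TPM in CAC, against 26.2, 14.7, 42.6, 10.6 and 21.6 TPM in NCAC and 13.4, 16.6, 16.5, 14.6 and 22.2 TPM in Con. Every CAC library lay above every Con library, and CAC and NCAC overlapped. In log2 terms the difference came to 1.90 against Con (SE 0.43, adjusted p = 0.0148) and 1.58 against NCAC (SE 0.49, adjusted p = 0.0522). At week 4 the CAC libraries, at 18.2, 41.7, 13.9, 26.6 and 14.0 TPM, also lay above those of Con, the nearest by a narrow margin, at 11.3, 9.69, 13.9, 11.2 and 11.97 TPM, as did 3.3% of tested genes, but the difference was not called (log2 difference 0.81, 95% interval 0.23 to 1.38, adjusted p = 0.211).

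Igfbp4 (chr11:99040005-99052655, GRCm38.p6), a binding protein known chiefly for holding IGFs back, had the smallest adjusted p of the members. At week 6 it stood at 66.1, 51.3, 50.9, 65.2 and 44.1 TPM in CAC, 17.3, 24.9, 18.1, 17.6 and 16.8 TPM in NCAC and 19.9, 24.0, 23.8, 26.6 and 21.98 TPM in Con. The lowest CAC library was well above the highest of the other groups. The log2 difference was 1.21 against Con (SE 0.12, adjusted p = 4.89e-05) and 1.5 against NCAC (SE 0.14, adjusted p = 2.22e-05), and both were called under every alternative and without any single library. At week 8 the level was 107 to 394 TPM in CAC with a median of 317 TPM, 223, 57.0, 90.1, 220.5 and 198 TPM in NCAC and 104, 191, 148, 106 and 162 TPM in Con. CAC replicate 3 was the lowest of CAC and lay among the Con libraries. The log2 difference against Con was 0.95 (SE 0.31, adjusted p = 0.0591), and it was called without CAC replicate 3 (adjusted p = 0.00433).

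Igfbp5 (chr1:72858065-72874865, GRCm38.p6), a binding protein abundant in muscle and connective tissue, was the member that fell. At week 6 it had 54.6, 83.1, 92.0, 83.4 and 103 TPM in CAC, 129.6, 175, 148, 99.97 and 116 TPM in NCAC and 97.3, 175, 164, 118 and 131 TPM in Con. The highest CAC library lay within the range of both other groups. On the log2 scale the difference was -0.71 against Con (SE 0.18, adjusted p = 0.0174) and -0.68 against NCAC (SE 0.18, adjusted p = 0.0182). At week 8 the level was 50.3 to 278 TPM in CAC with a median of 126 TPM, 446, 144, 86.1, 351 and 717 TPM in NCAC and 369.9, 669, 339, 339 and 314 TPM in Con. Every CAC library lay below every Con library, as did 3.05% of tested genes, while the NCAC libraries spread over both ranges. In log2 terms the difference came to -1.75 against Con (SE 0.36, adjusted p = 0.00955) and -1.22 against NCAC (SE 0.52, adjusted p = 0.134).

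Igfbp5 and Igfbp3 were also compared within each library. The Igfbp5 level over the Igfbp3 level at week 6 ranged from 0.78 to 4.37 in CAC, 7.59 to 14.1 in NCAC and 7.52 to 18.1 in Con. At week 8 it ranged from 0.333 to 10.7 in CAC, 2.02 to 33.2 in NCAC and 14.1 to 40.4 in Con. The CAC range lay below the Con range at both weeks, and at week 6 also below the NCAC range. The pair joins a member that rose in CAC with the one that fell. Its ratio restates their differences and is no separate result. At week 2 the ratio was 7.33 to 14.6 in CAC, 7.56 to 12.98 in NCAC and 5.3 to 14.2 in Con, and these ranges overlapped.

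**Figure D3:**
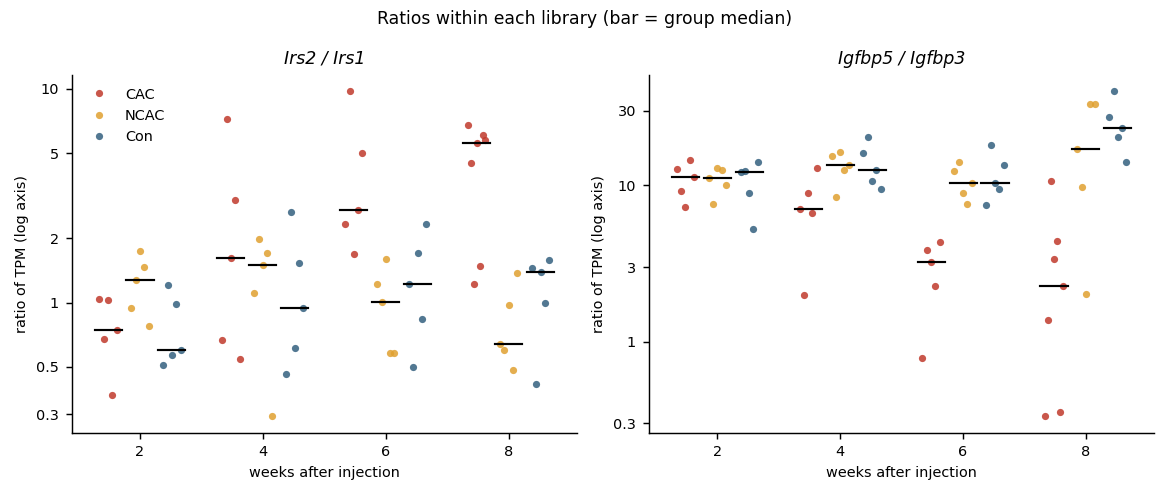
Ratio of 2 levels within each library (log axis) by weeks after injection, Irs2 over Irs1 on the left and Igfbp5 over Igfbp3 on the right, with 1 point per library in CAC (red), NCAC (amber) and Con (blue) and a bar at the group median. The Igfbp5 to Igfbp3 ratio of CAC has a median of 3.24 at week 6 and 2.28 at week 8, where Con has 10.35 and 23.2.

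Of the receptors, Igf1r was called higher in CAC against Con at week 6 and Insr at week 8. Each lay near the threshold at the other of these weeks. The test between weeks 8 and 6 called neither, so no difference in timing was shown. Igf1r (chr7:67952257-68233668, GRCm38.p6), the IGF-1 receptor, had 9.67, 7.01, 6.48, 9.73 and 5.54 TPM in CAC at week 6, 4.42, 4.96, 4.57, 4.12 and 4.42 TPM in NCAC and 5.73, 4.72, 4.4, 4.41 and 5.4 TPM in Con. CAC replicate 5 lay below the highest Con library, and every CAC library was above every NCAC library. The log2 difference was 0.53 against Con (SE 0.14, adjusted p = 0.0209) and 0.63 against NCAC (SE 0.14, adjusted p = 0.00879). The call against Con was lost when CAC replicate 1 or 4 or Con replicate 3 or 4 was left out, with adjusted p up to 0.0537. At week 8 Igf1r was 5.97 to 12.6 TPM in CAC with a median of 7.31 TPM, 4.76, 3.96, 5.65, 3.96 and 4.53 TPM in NCAC and 5.37, 5.79, 5.0, 5.1 and 5.57 TPM in Con. All 7 CAC libraries exceeded all libraries of the other groups. On the log2 scale the difference was 0.67 against NCAC (SE 0.17, adjusted p = 0.0267) and 0.47 against Con (SE 0.15, adjusted p = 0.0645).

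Insr (chr8:3150922-3279649, GRCm38.p6), the insulin receptor, was the more abundant receptor transcript per length. At week 6 it had 56.3, 47.8, 41.6, 47.5 and 31.1 TPM in CAC, 33.9, 37.8, 37.1, 34.5 and 26.2 TPM in NCAC and 40.8, 31.8, 27.0, 31.1 and 33.7 TPM in Con. CAC replicate 5 lay among the Con libraries and the other 4 above them, and the difference missed the threshold (log2 difference 0.42, 95% interval 0.10 to 0.74, adjusted p = 0.0516). At week 8 it was 32.0 to 61.0 TPM in CAC with a median of 45.6 TPM, 25.6, 34.1, 29.6, 20.9 and 18.0 TPM in NCAC and 31.5, 26.9, 29.3, 33.2 and 28.9 TPM in Con. The lowest CAC library lay within the range of both other groups. In log2 terms the difference came to 0.55 against Con (SE 0.16, adjusted p = 0.0421) and 0.80 against NCAC (SE 0.20, adjusted p = 0.0260). The call against Con was lost in 9 of 12 cases when 1 library was left out (CAC replicates 1, 2, 4 and 5 and each Con replicate, adjusted p up to 0.0942).

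Of the 2 adaptors, Irs2 rose at week 6 and Irs1 was not called, though the difference between the adaptors was not tested. Irs2 (chr8:10984681-11008929, GRCm38.p6), the adaptor whose transcript is known to rise in fasting liver, stood at 65.2, 151, 57.2, 50.5 and 60.1 TPM in CAC at week 6, 19.2, 21.4, 48.5, 14.5 and 5.14 TPM in NCAC and 28.3, 11.5, 36.3, 16.7 and 41.2 TPM in Con. CAC replicate 2 was far above the rest of its group, and the lowest CAC library exceeded every other library of the week. The log2 difference was 1.5 against Con (SE 0.35, adjusted p = 0.0117) and 1.95 against NCAC (SE 0.45, adjusted p = 0.0102). At week 8 Irs2 was 18.6 to 87.4 TPM in CAC with a median of 52.3 TPM, 14.1, 10.7, 18.0, 12.8 and 18.6 TPM in NCAC and 30.04, 11.9, 31.5, 20.8 and 28.2 TPM in Con. CAC replicate 3 was the lowest of CAC, among the Con libraries and just above the highest NCAC library. On the log2 scale the difference was 1.79 against NCAC (SE 0.33, adjusted p = 0.0100) and 1.15 against Con (SE 0.36, adjusted p = 0.0542). Without CAC replicate 3 it was called against Con (adjusted p = 0.00589).

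Irs1 (chr1:82233105-82291439, GRCm38.p6), the adaptor on which insulin-stimulated glucose uptake in muscle chiefly relies, was called in no comparison between treatments. At week 6 it had 28.1, 15.4, 34.1, 18.5 and 11.96 TPM in CAC, 15.7, 21.3, 30.5, 25.1 and 8.91 TPM in NCAC and 23.2, 23.1, 21.3, 20 and 17.8 TPM in Con. The CAC libraries lay on both sides of Con, with a log2 difference of -0.05 (95% interval -0.55 to 0.44, adjusted p = 0.872). At week 8 it was 6.86 to 29.7 TPM in CAC with a median of 14.5 TPM, 21.97, 17.9, 18.5, 26.4 and 13.5 TPM in NCAC and 20.6, 28.6, 22.6, 20.9 and 17.8 TPM in Con. CAC replicate 5 was the highest of CAC at 29.7 TPM and the other 6 lay below every Con library. The log2 difference against Con was -0.61 (95% interval -1.15 to -0.06, adjusted p = 0.129), and without replicate 5 it was called (adjusted p = 0.0266). Within a library, Irs2 over Irs1 at week 6 was 1.68 to 9.805 in CAC, 0.577 to 1.59 in NCAC and 0.499 to 2.32 in Con. At week 8 it was 1.215 to 6.78 in CAC with a median of 5.61, 0.484 to 1.37 in NCAC with a median of 0.642, and 0.416 to 1.59 in Con with a median of 1.39, so that CAC overlapped both other groups.

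The promoters of the 2 adaptors are shown because Irs2 rose and Irs1 was not called. Irs2 is a known FoxO target in liver. The 120 bases before the transcription start are given from RefSeq (GRCm38.p6, both genes on the minus strand, Irs2 at chr8:11008930-11009049 and Irs1 at chr1:82291440-82291559), 5′ to 3′, with capitals marking the FoxO core AAACA, here read as its reverse complement TGTTT, and the E-box CACGTG.
Irs2: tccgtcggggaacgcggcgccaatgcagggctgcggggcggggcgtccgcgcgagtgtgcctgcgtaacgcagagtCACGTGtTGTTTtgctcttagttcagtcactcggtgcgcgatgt
Irs1: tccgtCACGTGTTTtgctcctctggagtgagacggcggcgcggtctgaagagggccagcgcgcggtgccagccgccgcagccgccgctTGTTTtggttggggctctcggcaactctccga
In Irs2 the E-box starts 44 bases before the start site and the TGTTT 37 bases before it. In Irs1 an E-box starting 115 bases before the start overlaps a TGTTT starting at 111, and another TGTTT starts at 32. On either strand AAACA was found in 50.5% of all 32851 promoters of the same length (250 bases before to 50 after the start) and CACGTG in 7.15%. Of the 9 members in the promoter table, CACGTG was found in these 2 adaptors, and AAACA in 5 (Foxo1, Igf1, Igfbp5, Irs1 and Irs2). The longer FoxO site GTAAACA, found in 3.65% of all promoters, the STAT motif TTCNNNGAA, in 8.3%, and the glucocorticoid receptor motif ACANNNTGT, in 6.85%, were in none of the 9. These are matches of letters in a window and say nothing of binding.

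Pik3r1 (chr13:101680761-101768217, GRCm38.p6) encodes the regulatory subunit p85 alpha of PI3K, which steadies the catalytic subunit and, in excess, competes with it for the adaptors. At week 6 it had 64.4, 49.1, 32.7, 41.6 and 29.3 TPM in CAC, 27.8, 16.4, 13.3, 13.7 and 15.9 TPM in NCAC and 13.8, 24.1, 17.2, 21.6 and 20.1 TPM in Con. The lowest CAC library was above every other library of the week. In log2 terms the difference came to 1.09 against Con (SE 0.20, adjusted p = 0.00328) and 1.26 against NCAC (SE 0.22, adjusted p = 0.00243). At week 8 the level was 24.8 to 85.2 TPM in CAC with a median of 52.8 TPM, 41.7, 15.1, 21.8, 37.7 and 24.2 TPM in NCAC and 14.7, 31.6, 25.01, 28.0 and 40.9 TPM in Con. The groups overlapped, with a log2 difference against Con of 0.82 (95% interval 0.13 to 1.52, adjusted p = 0.111). At week 2 the mean was 13.8 ± 2.46 TPM in CAC, 21.0 ± 3.55 TPM in NCAC and 12.03 ± 4.465 TPM in Con (SD, n = 5 each). There CAC was not called against NCAC (log2 difference -0.57, 95% interval -0.87 to -0.28, adjusted p = 0.0985), nor NCAC against Con (0.79, adjusted p = 0.196), though the first was called without CAC replicate 2 (adjusted p = 0.0380) and the second without Con replicate 5 (adjusted p = 0.00918).

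Foxo1 (chr3:52268337-52350109, GRCm38.p6), a FoxO factor that AKT holds inactive and that drives atrophy genes in muscle, had 19.8, 10.4, 9.66, 12.6 and 12.3 TPM in CAC at week 6, 7.87, 6.68, 7.59, 7.08 and 6.33 TPM in NCAC and 6.04, 7.23, 11.8, 7.27 and 7.59 TPM in Con. Every CAC library was above NCAC, and Con replicate 3 lay among the CAC libraries. The log2 difference was 0.62 against Con (SE 0.19, adjusted p = 0.0323) and 0.75 against NCAC (SE 0.16, adjusted p = 0.00707). The call against Con was lost without CAC replicate 1 or 4 or Con replicate 1, 2, 4 or 5, with adjusted p up to 0.0703. At week 8 it was 9.35 to 27.8 TPM in CAC with a median of 18.1 TPM, 11.98, 7.42, 9.49, 14.5 and 8.84 TPM in NCAC and 7.33, 10.9, 9.92, 9.39 and 11.5 TPM in Con. CAC replicate 3 lay within the range of both other groups and the other 6 above both. On the log2 scale the difference was 0.82 against Con (SE 0.20, adjusted p = 0.0219) and 0.76 against NCAC (SE 0.23, adjusted p = 0.0459). The call against Con was lost without Con replicate 1 (adjusted p = 0.0568), and that against NCAC in 10 of 12 cases when 1 library was left out (all but CAC replicates 3 and 6).

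Within CAC at week 4, replicates 2 and 4 stood high in several members at once. Irs2 was 92.2 TPM in replicate 2 and 57.2 TPM in replicate 4, against 16.4, 34.9 and 9.92 TPM in the other 3. Pik3r1 was 54.2 and 53.9 TPM, against 19.4, 22.1 and 13.6 TPM, and Igfbp4 was 66.1 and 68.2 TPM, against 29.8, 27.1 and 25.9 TPM. In each of these genes both libraries lay above the other 3. The same libraries had the highest summed levels of the macrophage markers, 354.4 and 321 TPM against 120.7 to 200.2 TPM in the other 3, and of the markers of fibro-adipogenic progenitors, 2575 and 2365 TPM against 1512 to 1756 TPM. This was not particular to these cell types. Adipocyte (9775 and 8273 TPM, the others at most 7372 TPM), endothelial, smooth muscle and pericyte, tenocyte and satellite cell sums were highest there too. Slow and fast fibre sums were not. The factors by which rescaling divides a library were also highest in replicates 2 and 4, at 1.09 and 1.05 against 0.924 to 1. The sums of FoxO factors and FoxO target genes of muscle were also highest there, 4184 and 4101 TPM against 2075 to 2698 TPM. Those of the mTORC1 branch and its brakes were 899.9 and 662.8 TPM against 457.6 to 559 TPM. Irs1 (12.7 TPM) and Igfbp5 (83.2 TPM) were lowest in replicate 2. The part of other cell types in the members' values was not tested. The log2 differences of Irs2 (0.50, 95% interval -0.84 to 1.84) and Pik3r1 (0.58, 95% interval -0.33 to 1.49) from Con have wide intervals.

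Markers of other cell types were called between the groups too. In CAC against Con, 21.8% of all tested genes were higher and 3.87% lower at week 6, and 6.37% and 6.05% at week 8. Marker counts after rescaling are not given. At week 6 macrophage markers were higher in CAC than in Con for 9 of 12 genes, with summed levels of 211.5 to 270.0 TPM in CAC and 123 to 152 TPM in Con, and no marker was at 0. Adipocyte markers were higher for 6 of 10 genes (sum 5347 to 11340 TPM in CAC and 5485 to 9129 TPM in Con), endothelial markers higher for 6 and lower for 1 of 10 (sum 243 to 306 TPM in CAC and 211 to 241 TPM in Con), and tenocyte markers lower for 3 of 8 (sum 271 to 552 TPM in CAC and 326 to 752 TPM in Con). Satellite cell markers summed to 37.2 to 56.05 TPM in CAC and 31.3 to 34.15 TPM in Con, without overlap. The sums of fibro-adipogenic progenitor markers were 1636 to 1871 TPM in CAC and 1307 to 1640 TPM in Con. Those of smooth muscle and pericyte markers were 398.8 to 507.3 TPM and 362.3 to 452.3 TPM. Calls of single genes in these lists are not given for week 6. Transcripts of the mitochondrial genome took a median of 33.7% of the TPM in CAC and 40% in Con. At week 8, 5 of 8 tenocyte markers were lower in CAC than in Con (sum 209 to 506 TPM in CAC and 250 to 789 TPM in Con), and 2 of 12 markers of fibro-adipogenic progenitors were lower (sum 4275 to 10700 TPM in CAC and 6284 to 13740 TPM in Con). Slow fibre markers were lower for 2 of 8 genes (sum 15280 to 38160 TPM in CAC and 28390 to 34050 TPM in Con). At that week, 1 of 12 macrophage markers was lower and none higher, and no adipocyte marker was called. The part of these cells in the members' differences was not tested.

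The other genes of the pathway were taken from 6 lists of 84 genes, of which 78 were tested. In CAC against Con, 27 were higher and 4 lower at week 6, which was 34.6% and 5.13% of those tested, where 21.8% of all genes were higher and 3.87% lower. At week 8, 13 were higher and 3 lower (16.7% and 3.85%), where 6.37% of all genes were higher and 6.05% lower. After rescaling the counts were 15 higher and 8 lower at week 6, and 11 higher and 4 lower at week 8. The split of all calls after rescaling is given above for week 6. It is not given for week 8, so the rescaled counts of week 8 cannot be read against all genes. In CAC against NCAC, 27 were higher and 4 lower at week 6, where 18.8% of all genes were higher and 3.42% lower. At week 8, 15 were higher (19.2%) and 1 lower, where 11.8% of all genes were called and 10.3% were higher, and after rescaling 4 were higher and 1 lower. Their median log2 difference in CAC against Con was 0.20 at week 6, where that of all tested genes was 0.16, and 0.13 at week 8, where that of all tested genes was 0.00. At week 4 in CAC against Con 1 was called, Socs3, and at week 2 none.

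Among receptors and proximal adaptors, 4 of 13 tested genes were higher and 1 lower in CAC than in Con at week 6. Of all tested genes, 21.8% were higher and 3.87% lower in that comparison. Counts per list after rescaling are not given. Socs3, a cytokine-induced inhibitor that also binds Irs1 and Irs2, stood at 29.0 ± 8.99 TPM in CAC and 2.84 ± 0.685 TPM in Con (SD, n = 5 each, log2 difference 2.93, adjusted p = 1.99e-06). It was already called at week 4, at 22.1 ± 8.35 TPM in CAC and 2.38 ± 0.824 TPM in Con (SD, n = 5 each, log2 difference 2.73, adjusted p = 0.00608), and at week 8, at 62.9 ± 22.6 TPM in CAC and 9.97 ± 3.98 TPM in Con (SD, n = 7 and 5, log2 difference 2.48, adjusted p = 0.00221). Grb14, an adaptor that inhibits the insulin receptor kinase, fell at week 6 to 4.07 ± 0.794 TPM in CAC, against 11.6 ± 0.795 TPM in Con (SD, n = 5 each, log2 difference -1.33, adjusted p = 1.4e-05). At week 8 Grb14 was 2.45 ± 1.58 TPM in CAC and 8.47 ± 2.65 TPM in Con (SD, n = 7 and 5, log2 difference -1.52, adjusted p = 0.00492). In the test of whether the difference of CAC from Con differed between weeks 6 and 2, 1 of the 78 pathway genes was called higher and 2 lower, where 2.5% of all genes were called. These were Fbxo31 (log2 value 1.2, adjusted p = 0.0430), Inppl1 (-0.54, adjusted p = 0.0123) and Grb14 (-1.33, adjusted p = 0.00895). None of the 3 was called in a fit of all 62 libraries (adjusted p = 0.313, 0.459 and 0.170), and Fbxo31 was not called with the replicate block either (adjusted p = 0.0724). Ptprf, a receptor tyrosine phosphatase that acts on Insr, rose at week 6 (log2 difference 0.67, adjusted p = 0.00222).

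Of 6 tested IGF ligands, binding proteins and their proteases, 3 were higher in CAC than in Con at week 6, led by Igfbp7 at 206 ± 26.4 TPM in CAC and 108 ± 18.2 TPM in Con (SD, n = 5 each, adjusted p = 0.000337). At week 8 Igfbp6, a binding protein with a preference for IGF-2, fell to 199 ± 51.3 TPM in CAC, against 585 ± 301 TPM in Con (SD, n = 7 and 5, log2 difference -1.44, adjusted p = 0.00885). In the list of PI3K, AKT and lipid phosphatases, 5 of 17 were higher and 1 lower at week 6. Of all tested genes, 21.8% were higher and 3.87% lower at that week. The 1 lower gene of the list was Inppl1, the phosphatase SHIP2, with 58.4 ± 0.69 TPM in CAC and 89.2 ± 11.1 TPM in Con (SD, n = 5 each, adjusted p = 0.000855).

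In the mTORC1 branch and its brakes, 8 of 18 were higher and 1 lower at week 6. Of all tested genes, 21.8% were higher and 3.87% lower at week 6, and 6.37% and 6.05% at week 8. Eif4ebp1, the translation repressor that mTORC1 inactivates, had 216 ± 75.2 TPM in CAC and 99.9 ± 9.66 TPM in Con (SD, n = 5 each, adjusted p = 0.00457), and Ddit4l, an mTORC1 inhibitor related to Ddit4, fell to 10.9 ± 2.61 TPM in CAC, against 30.1 ± 9.67 TPM in Con (SD, n = 5 each, adjusted p = 0.000702). At week 8 Ddit4, the stress-induced mTORC1 inhibitor REDD1, had 179.95 ± 160.0 TPM in CAC and 16.2 ± 5.92 TPM in Con (SD, n = 7 and 5, log2 difference 3.00, adjusted p = 0.00437), with every CAC library above every Con library. Among FoxO factors and FoxO target genes of muscle, 6 of 15 were higher and 1 lower at both weeks. Fbxo31, an F-box protein of a ubiquitin ligase, had 142 ± 66.9 TPM in CAC and 46.3 ± 2.92 TPM in Con at week 6 (SD, n = 5 each, log2 difference 1.46, adjusted p = 0.00249), and Foxo6 fell (log2 difference -0.99, adjusted p = 0.0182). Of 9 genes of glucose uptake and storage, 1 was higher at each of the weeks 6 and 8. At week 6 it was Ppp1r3c, which targets a phosphatase to glycogen (log2 difference 1.11, adjusted p = 0.0204), and this call was lost after rescaling (adjusted p = 0.0584) and without CAC replicate 1 or Con replicate 2.

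**Figure D4:**
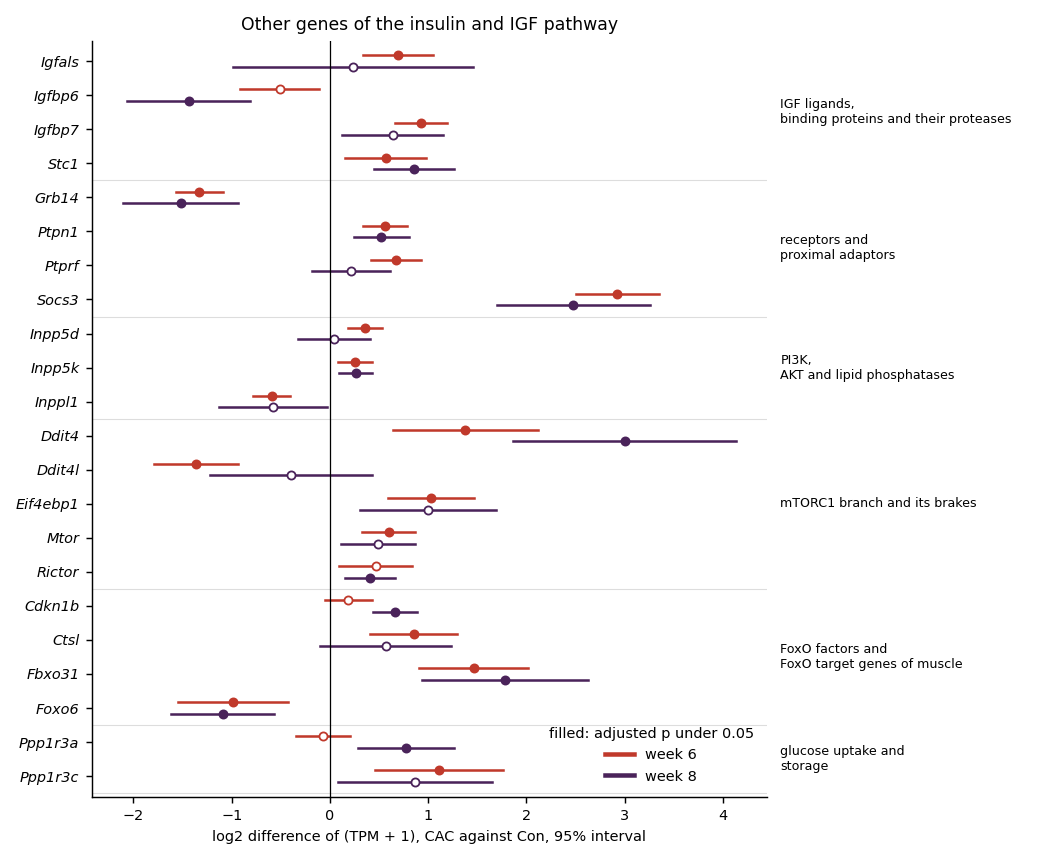
Log2 difference of (TPM + 1), CAC against Con, with its 95% interval for pathway genes with the smallest adjusted p in each list, at week 6 (red) and week 8 (purple), with filled points where the adjusted p was under 0.05. Socs3 lies farthest to the right at week 6 with 2.93, Ddit4 at week 8 with 3.00, and Grb14 lies left of zero at both weeks.

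Con at week 8 was set against Con at week 6 to see how the members stand in mock-injected mice. Each week is a separate set of libraries, so time after injection and the handling of the samples cannot be told apart. Igfbp4 had 104, 191, 148, 106 and 162 TPM at week 8, against 19.9, 24.0, 23.8, 26.6 and 21.98 TPM at week 6, a log2 difference of 2.53 (SE 0.16, adjusted p = 1.4e-06). Igf1 had 16.6, 35.6, 19.8, 23.9 and 28.1 TPM at week 8, against 4.44, 5.48, 5.01, 4.33 and 4.42 TPM at week 6 (log2 difference 2.13, SE 0.17, adjusted p = 3.43e-06). Igfbp5 had 369.9, 669, 339, 339 and 314 TPM at week 8, against 97.3, 175, 164, 118 and 131 TPM at week 6 (log2 difference 1.53, SE 0.22, adjusted p = 0.000129). In each of the 3 the weeks did not overlap, which held for 44.5% of tested genes in the higher direction. Igfbp3 was the other member called (log2 difference 0.43, SE 0.15, adjusted p = 0.0283), so 4 of 10 members were higher and none lower, where 63.7% of tested genes were called, with 54.1% higher.

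The scaling matters in this comparison. The median log2 difference of all tested genes was 0.29 (-0.02 after rescaling), and rescaling changed the split of all calls from 7319 higher and 1305 lower to 4299 higher and 4301 lower. Igf1 (1.77), Igfbp4 (2.15) and Igfbp5 (1.15) were still called higher after rescaling, Igfbp3 was not (0.07, adjusted p = 0.679), and Insr (-0.49), Irs1 (-0.31) and Igf1r (-0.21) were called lower. The higher levels of the 3 genes in Con at week 8 went with markers of some other cells. Higher were 12 of 12 macrophage markers, 11 of 12 markers of fibro-adipogenic progenitors and 8 of 10 adipocyte markers. Their median log2 differences were 2.69, 2.59 and 3.2. Of all genes tested, 54.1% were higher. Median sums went from 623.4 to 461 TPM for tenocyte markers and from 400 to 306 TPM for smooth muscle and pericyte markers. Endothelial markers went from 226 to 251 TPM and satellite cell markers from 32.6 to 34.2 TPM. Slow fibre markers had 4 of 8 lower and none higher, with a median of -0.39. The part of other cell types in the levels of week 8 was not tested. Among the other pathway genes 23 were higher and 20 lower, and after rescaling 15 were higher and 41 lower.

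**Figure D5:**
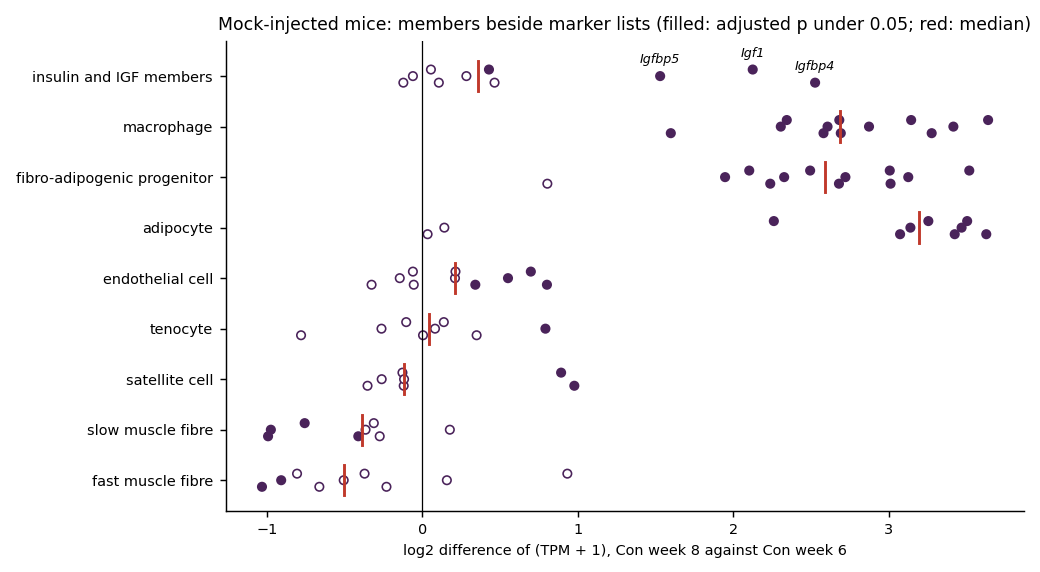
Log2 difference of (TPM + 1) between Con at week 8 and Con at week 6 for each of the 10 members and for the markers of 8 cell types, with filled points where the adjusted p was under 0.05 and a red bar at each list's median. Igf1, Igfbp4 and Igfbp5 lie within the range of the fibro-adipogenic progenitor markers, and the other 7 members lie between -0.12 and 0.47.

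The order of the 12 group means was examined for each member, with a step counted when it exceeded the larger SD of the 2 neighbouring groups on the log2 scale. For Igf1r, Insr, Irs2, Pik3r1 and Igfbp3 no step between neighbours reached that size, and neither did any for Irs1 and Igfbp5. CAC at weeks 8, 6 and 4 held the top 3 places for Igf1r, Pik3r1 and Igfbp3, and CAC at weeks 6, 8 and 4 those for Irs2. For Igfbp3, CAC at week 4 led NCAC at week 8 only narrowly (4.454 against 4.445 on the log2 scale). For Insr the order began with CAC at weeks 8, 6, 2 and 4. For Igfbp5 the order was topped by Con at week 8 (406 ± 148 TPM, SD, n = 5) and ended with CAC at week 6 (83.3 ± 18.0 TPM, SD, n = 5). For Igfbp4 CAC at week 8 (291 ± 111 TPM, SD, n = 7) stood above the other week 8 groups by more than the spread, and these stood above all earlier groups. Foxo1 had its only such step between CAC at week 8 (18.7 ± 5.64 TPM, SD, n = 7) and CAC at week 6 (12.97 ± 4.04 TPM, SD, n = 5).

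For the 7 members whose group means spanned at least 1 on the log2 scale, the 3 genes most alike were found as those with the smallest mean absolute difference of the 12 centred group means, among genes with at least 5 TPM on average. Closest to Igf1 were Cyb5a (0.07), Osr1 (0.10) and Man1a (0.11), and closest to Igfbp4 were Vsig4 (0.09), Cd302 (0.10) and Rarres2 (0.11). Vsig4 is a complement receptor of tissue macrophages. Closest to Foxo1 were Klf13 (0.08), Cyp27a1 (0.08) and Dcun1d3 (0.09). The mean differences were larger for Igfbp3 (Scarb1, Cyp4b1 and Glul, 0.13 to 0.15), Igfbp5 (Sparc, Adcy7 and Gsta4, 0.15), Pik3r1 (Serinc3, Zfp36 and Il6ra, 0.13 to 0.14) and Irs2 (Gpr157, Fibin and Csrnp1, 0.16 to 0.17). Igf1r, Insr and Irs1 varied too little over the groups for such a search.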

How the data were processed

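Stranded mRNA libraries of soleus RNA were sequenced on a NovaSeq instrument, per the labels' protocols. The authors deposited 1 table of TPM values, and the submitters' processing notes name mm10 as the build. Aligner, quantification tool and annotation: not given in the sources used here. Since every library has the same TPM total, no depth, interval or detection limit follows from it, and a change in a few abundant transcripts shifts all others. Groups and weeks came from the labels. Genes with at least 1 TPM in at least 5 of 62 libraries (13529 of 47643) were tested as log2(TPM + 1) with limma 3.58.1 (R 4.3.3, intensity trend). Each comparison was fitted on its own groups, and p-values were adjusted over all genes. The step was tested on simulated data with changes added to 200 genes. At week 8 it found 30% of log2 changes of 0.5 in CAC against Con and 28% in CAC against NCAC. Of log2 changes of 1 it found 86% and 66%. In the test between weeks 8 and 6 it found 22% of changes of 0.5 and 84% of changes of 1. Small changes can thus be missed there, and a gene not called is not shown to be unchanged. Members, pathway lists, marker lists and tests were chosen with earlier results of these data known. All members are named, with up to 3 genes per pathway list by adjusted p, and the 3 nearest genes per member. The result of 1 gene that this rule names is not reported here. Positions and promoters are from RefSeq (GRCm38.p6). The promoter of Insr is not shown. Alternatives tried were no filter, a pseudocount of 0.1, median-of-ratios rescaling, a fit of all 62 libraries, a fit of all 3 groups of the week, the replicate number as a block, leaving out each library, and leaving out the 3 libraries rich in Myh4 (500 TPM or more). Samples were treated as unpaired, since no source says that a number marks a shared animal or day. Figures used matplotlib 3.10.9 (Python 3.11.15).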

Additional observations from a re-analysis of the deposited data

Results flagged for a closer look

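In 120 combinations of a member and a group, 8 had a highest library whose gap to the nearest other library was large for the group's range (Dixon's criterion at the 95% level), where chance flags about 1 in 20 groups. In CAC they were Irs2 of replicate 2 at week 6 (151 TPM, the others 50.5 to 65.2 TPM) and Irs1 of replicate 5 at week 8 (29.7 TPM, the others 6.86 to 15.3 TPM). In NCAC at week 6 they were Igf1 of replicate 2 (5.79 TPM, the others 2.85 to 3.56 TPM), Igfbp4 of replicate 2 (24.9 TPM, the others 16.8 to 18.1 TPM) and Pik3r1 of replicate 1 (27.8 TPM, the others 13.3 to 16.4 TPM). In Con they were Pik3r1 of replicate 5 at week 2 (19.9 TPM, the others 8.79 to 11.1 TPM), Foxo1 of replicate 3 at week 6 (11.8 TPM, the others 6.04 to 7.59 TPM) and Igfbp5 of replicate 2 at week 8 (669 TPM, the others 314 to 369.9 TPM).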

How the results depend on the processing

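A pseudocount of 0.1 changed no call of a member among 150 combinations of member and comparison. The members called at week 8 numbered 9 for CAC against Con and 8 for CAC against NCAC in a fit of all 62 libraries, against 4 and 4 in the compared groups alone. The fit of all libraries leaves each log2 difference unchanged and takes the spread from all 12 groups, the earlier weeks included. How much each group's spread changed the calls was not tested. After median-of-ratios rescaling CAC against NCAC at week 8 had 1 member called. In a fit of all 3 groups of the week, Igfbp3 was called in CAC against NCAC at week 4, which made 1 member. In Con at week 8 against week 6, rescaling turned the direction of Igf1r to -0.21 (adjusted p = 0.0262) and of Irs1 to -0.31 (adjusted p = 0.0358). The replicate number as a block gave 1 member for CAC against Con at week 8, 2 for CAC against NCAC at week 8, and 2 for the week 6 minus week 2 difference (Igfbp4, adjusted p = 0.0481, and Igfbp5, adjusted p = 0.0172). CAC replicates 6 and 7 of week 8 have no library of the same number in Con or NCAC, so under the block they do not bear on the difference, and the median of all genes moved to 0.0564 from 0.00429 in CAC against Con and to 0.212 from 0.163 in CAC against NCAC. At week 8 the loss of these libraries and the block itself cannot be told apart. Same-numbered samples correlated between -0.666 and 0.477 in their deviations, in no pair of groups over 0.1 throughout, so a shared number was not taken to pair samples. Without any filter Foxo1 at week 6 (adjusted p = 0.0635) and Insr at week 8 (0.0605) were lost in CAC against Con. Leaving out 1 library gave 6 to 9 members at week 6 and 2 to 8 at week 8 for CAC against Con, 8 to 9 and 1 to 6 for CAC against NCAC, 0 to 1 for CAC against NCAC and for NCAC against Con at week 2, 3 to 5 for Con at week 8 against week 6 and 0 to 4 for the week 6 minus week 2 difference. No other comparison gained or lost a member this way. Over all genes, the counts moved by more than 1.5 times in these cases. For CAC against Con at week 4, 21 genes became 1 with no filter, 84 in a fit of all 62 libraries, 140 in a fit of the week's 3 groups and 0 with the block. For CAC against NCAC at week 2, 4 became 1 with no filter, 12 after rescaling, 7 with all 62 libraries, 68 with the week's groups, 0 with the block and 1 without the Myh4-rich library. At week 4, 27 became 53 with a pseudocount of 0.1, 14 with no filter, 200 with all 62 libraries and 790 with the week's groups. For CAC against Con at week 8, 1680 became 4206 with all 62 libraries and 743 with the block. For CAC against NCAC at week 8, 1594 became 605 after rescaling, 5837 with all 62 libraries, 2968 with the week's groups, 1060 with the block and 3041 without the Myh4-rich library. NCAC against Con at week 8 had 175 with all 62 libraries, against 0. The other comparisons with 0 or 1 gene called had 0 to 6 under these alternatives. The week 6 minus week 2 difference had 24 with all 62 libraries, against 338, and the week 8 minus week 6 difference, with 26, had between 0 and 198 over the alternatives. The depth is not recorded in TPM, so what it limits cannot be given.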
